A study of Mus musculus with 4 samples.

Results

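Cadherins and protocadherins were described in stromal cells sorted from mouse femurs. The members are all rows of the count table whose symbol begins with Cdh and a digit or with Pcdh, leaving out the endothelial cadherin Cdh5, which gave 77 genes of 17230. They comprise 4 type I and 7 type II classical cadherins, 5 other numbered cadherins, 9 delta protocadherins, 3 other non-clustered protocadherins, and 6 alpha, 21 beta and 22 gamma genes of the protocadherin clusters. Of the 77 members, 64 passed the filter on low counts and were tested, and 13 were too low to test.

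RNA was sequenced in bulk from 4 libraries of cells labelled GFP-positive and tdTomato-positive, taken from the femur and its marrow at postnatal day 21. All mice carried Cxcl12(GFP/+), which reports Cxcl12 expression and marks CXCL12-abundant reticular cells, a stromal cell of the marrow, and R26R(tdTomato/+), a lineage mark that a Cre recombinase switches on for good. The Hes1-derived group (n = 2, replicates 1 and 3) carried Hes1(CreER/+) and the Fgfr3-derived group (n = 2, replicates 2 and 3) carried Fgfr3-iCreER, and both received tamoxifen once at embryonic day 12.5. The groups thus stand for cells that descend from those using the Hes1 or the Fgfr3 promoter at that stage, and the Cre line and the descent of the cells cannot be told apart. The labels are silent on pooling of animals and on whether replicates were separate animals, so that p-values measure only the spread between these libraries, which may be technical.

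Classical cadherins are calcium-dependent adhesion molecules that bind their like on the neighbouring cell and are tied to actin through beta-, alpha- and p120-catenin. In bone, Cdh11 (OB-cadherin) and Cdh2 (N-cadherin) are the cadherins best known from osteoblasts and marrow stroma. Protocadherins lack the catenin-binding tail of the classical cadherins. The delta group are single genes that signal to the actin cytoskeleton, among others through the WAVE complex, while the clustered genes each start from a promoter and a large first exon of their own, and alpha and gamma genes splice that exon to constant exons shared within the cluster.

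Upstream sequences are shown for Cdh6 and Pcdh19, which passed as lower in Hes1-derived libraries, and for Pcdh10, which lay higher without passing the test, to set the promoters of both kinds side by side. They are the 250 bases before the gene start in RefSeq on build GRCm38.p6, 5′ to 3′ on the gene's strand. Capitals mark the GC box, GGGCGG or its reverse CCGCCC, and the CCAAT box, CCAAT or its reverse ATTGG. Cdh6 lies at chr15:13173676-13173925 on the minus strand, Pcdh19 at chrX:133688994-133689243 on the minus strand and Pcdh10 at chr3:45378148-45378397 on the plus strand.
Cdh6: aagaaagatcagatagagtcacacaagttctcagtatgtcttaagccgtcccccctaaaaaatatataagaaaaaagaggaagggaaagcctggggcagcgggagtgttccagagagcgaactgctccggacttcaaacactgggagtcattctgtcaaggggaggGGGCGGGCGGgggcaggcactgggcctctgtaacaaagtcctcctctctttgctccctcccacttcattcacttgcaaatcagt
Pcdh19: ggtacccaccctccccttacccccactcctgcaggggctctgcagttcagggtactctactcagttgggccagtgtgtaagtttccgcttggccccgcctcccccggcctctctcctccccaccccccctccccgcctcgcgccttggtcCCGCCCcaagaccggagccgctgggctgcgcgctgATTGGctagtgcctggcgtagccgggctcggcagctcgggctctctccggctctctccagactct
Pcdh10: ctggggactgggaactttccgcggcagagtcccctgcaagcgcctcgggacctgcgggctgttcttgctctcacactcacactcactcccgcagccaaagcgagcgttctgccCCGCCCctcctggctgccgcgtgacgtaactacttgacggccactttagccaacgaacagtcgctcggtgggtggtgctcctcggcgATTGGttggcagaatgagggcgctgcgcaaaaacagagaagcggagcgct

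The Cdh6 window held 2 overlapping GC boxes and no CCAAT box, while the Pcdh19 and Pcdh10 windows each held 1 of both. Of 18 members with a RefSeq entry, 8 held a GC box and 12 a CCAAT box on either strand in at least 1 of their entries. Of all 32851 promoter entries, each counted singly, 32.7% and 33.8% did. Members were counted by gene and the background by entry, so the values are not in the same unit. The core letters TGTGGT or ACCACA, the recognition core of the osteoblast factors of the RUNX family, were in the windows of Cdh15, Cdh20 and Pcdh15, and in 14.0% of all promoters. In Cdh15 they lie within chr8:122848324-122848353 on the plus strand, in a stretch that GENCODE M21 places in the 5′ UTR of Cdh15, printed here with the core in capitals.
Cdh15: tggccccgccccACCACAcacgtgcagtcc
These motifs were chosen after the sequences were seen, and a match describes the letters only.

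The libraries held 22745128 to 26804832 counted reads. Levels are CPM, counts scaled to library size with TMM factors. Where 2 pairs of values are set against each other, the first pair is Hes1-derived replicates 1 and 3 and the second is Fgfr3-derived replicates 2 and 3, in that order. Fold changes are log2, Hes1-derived minus Fgfr3-derived, with the standard error (SE) of edgeR's quasi-likelihood test, and adjusted p-values are Benjamini-Hochberg over all 14330 tested genes, with a threshold of 0.05. Of the marker lists, 10 of 18 osteoblast-lineage genes were lower in Hes1-derived libraries (median −1.58), as were 7 of 10 smooth muscle and pericyte genes and 4 of 28 reticular cell genes, with none of these lists' genes higher. In the other direction, 14 of 15 B lymphocyte, 10 of 11 erythroid, 9 of 15 pan-leukocyte, 2 of 14 endothelial and 2 of 7 tested Schwann and glial genes were higher and none lower. Of all tested genes 6.56% were lower and 5.24% higher. The reticular cell genes (14.3% lower) and the endothelial genes (14.3% higher) lay nearest to these shares and rest on few calls, as do the Schwann and glial genes. Summed chondrocyte markers stood at 739 and 2581 against 4242 and 551 CPM. In bulk samples fewer cells of a type and less RNA per cell cannot be told apart, and the part of these other cells in the results below was not tested except where a value is given.

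Most members had lower fitted levels in Hes1-derived than in Fgfr3-derived libraries. The reads of all 77 members together stood at 1023 and 632 against 2462 and 1645 CPM. Of the 64 tested members, 6 passed the test as lower (9.38%, against 6.56% of all tested genes) and 1 as higher (1.56%, against 5.24%). Lower were Cdh15, Cdh2, Cdh6, Pcdh19, Pcdhb3 and Pcdhgc3, and higher was Cdh13. The share that passed as lower lay near the background. The direction was more one-sided than the calls, since 55 members had a negative fold change (85.9%, against 51.5% of all tested genes) and the median was −0.96, against −0.02 for all tested genes. Both Hes1-derived libraries lay below both Fgfr3-derived libraries in 40 members (62.5%, against a background of 32.1%) and above them in 4 (6.25%, against 29.8%).

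**Figure D1:**
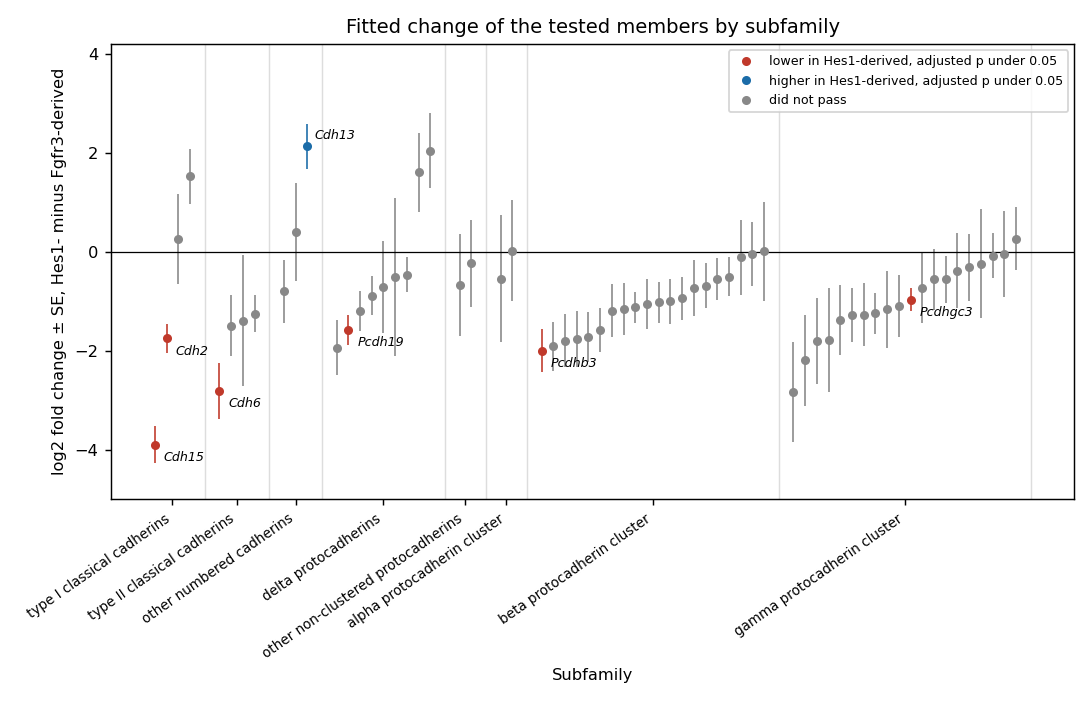
Fitted log2 fold change, Hes1-derived minus Fgfr3-derived, with its SE as bars, for the 64 tested members, sorted within each subfamily along the horizontal axis. Red and blue points passed the test as lower and higher and are named, and 55 of the 64 points lie below 0.

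These counts depended on single libraries and on the scaling. Leaving out Hes1-derived replicate 3 or Fgfr3-derived replicate 2 left 2 lower members, against 9 when Hes1-derived replicate 1 was dropped and 7 when Fgfr3-derived replicate 3 was. With libraries scaled so that the reticular cell genes were level, the median of all tested genes moved to 0.43 and that of the members to −0.52, with 2 members lower. Scaled to the reads of eGFP, the Cxcl12 reporter, the medians moved to 0.83 and −0.18, with 1 member lower, and the number of members with a negative fold change was 46 and 36 under these scalings. Relative to the median of all tested genes, the members' median stood at −0.93 in the main scaling, −0.95 with the reticular cell genes and −1.01 with eGFP. A change of scaling moves all genes by nearly the same amount, so this difference could hardly change and does not test the scaling. Among all calls, 44.4% were higher in the main scaling, against 81.7% and 94.5%.

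Among the type I classical cadherins, Cdh15 and Cdh2 were lower in Hes1-derived libraries. Cdh15, at chr8:122847966-122867397, encodes M-cadherin, best known from muscle satellite cells. It stood at 1.67 and 1.89 against 21.1 and 32.3 CPM, from 38 and 47 against 535 and 846 reads. The groups were far apart, with a log2 fold change of −3.90 ± 0.37 (SE, adjusted p = 0.013 by edgeR), a 14.9-fold difference. On the deposited regularized log2 scale, Cdh15 stood at 6.37 and 6.45 against 8.56 and 9.04. It was the member with the largest fold change, and the call held in 17 of 17 alternative settings, with fold changes from −4.16 to −3.08. The 8 measured markers of muscle stem cells and skeletal muscle, when summed, stood at 26.6 and 12.01 CPM against 14.3 and 13.2 CPM, and 0 of the 4 tested passed edgeR's test (1 lower and 1 higher at an unadjusted p under 0.05). Among these, Actn2 stood at 0.088 and 0.282 against 3.31 and 0.459 CPM, so that it lay lower in both Hes1-derived libraries, and was named after its values were seen. The other 3 tested markers went the other way, with log2 fold changes of 0.39 for Des, 1.11 for Tnnt3 and 1.13 for Mylpf. The median of the 4 was 0.75. Of the genes that define muscle stem cells and myoblasts, Pax7, Myf5, Myod1 and Myog were not analysed here. The acetylcholine receptor gene Chrna1, named after its values were seen, was at 0.201 to 0.344 CPM in all 4 libraries. The part of muscle cells in the Cdh15 reads was not tested.

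Cdh2, at chr18:16588877-16809246, encodes N-cadherin and was the second most abundant member. Its level was 196 and 134 against 663 and 448 CPM. The groups did not overlap, and the means of 165 ± 43.6 and 556 ± 152 CPM (SD, n = 2 each) gave a log2 fold change of −1.75 ± 0.30 (SE, adjusted p = 0.0204). The call was lost without Hes1-derived replicate 3 (adjusted p = 0.0715), with the reticular cell scaling (0.278) and with the eGFP scaling (0.458). The osteoblast-lineage and the smooth muscle and pericyte markers moved the same way, with summed levels of 8669 and 7729 against 34322 and 39011 CPM for the former and of 160 and 131 against 501 and 378 CPM for the latter. What part these cells had in the Cdh2 and Cdh15 values was not tested.

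The other type I genes were low. Cdh1, the E-cadherin of epithelia that erythroid precursors also carry, stood at 4.002 and 3.34 against 0.867 and 1.68 CPM. The groups did not overlap, but the log2 fold change of 1.52 did not pass the test (adjusted p = 0.121). Summed erythroid markers stood at 11052 and 6128 CPM against 1543 and 2312 CPM beside it, and summed epithelial markers at 2.33 and 3.18 against 2.48 and 1.30 CPM. Cdh4, the R-cadherin, stood at 0.322 to 1.23 CPM, and its groups overlapped.

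The type II cadherins were led by Cdh11, at chr8:102632095-102785642, the most abundant member in each library. Cdh11 stood at 562 and 316 against 1279 and 807 CPM. Both Hes1-derived libraries lay below both others, yet the spread within each group was wide, and the log2 fold change of −1.25 ± 0.37 (SE) missed the threshold (adjusted p = 0.070). DESeq2 called it lower (adjusted p = 0.00282), and so did edgeR on leaving out replicate 1 of the Hes1-derived (0.0369) or replicate 3 of the Fgfr3-derived group (0.039). The other way, its log2 fold change shrank to −0.89 without replicate 3 of the Hes1-derived (adjusted p = 0.268), −0.87 without replicate 2 of the Fgfr3-derived group (0.230), −0.80 with the reticular cell scaling (0.589) and −0.49 with the eGFP scaling (0.674). Of all member reads, Cdh11 took 54.9% and 49.997% against 51.9% and 49.1%. The 95% exact binomial intervals, which cover counting error only, were 54.3% to 55.6%, 49.2% to 50.8%, 51.6% to 52.3% and 48.6% to 49.5%. Together Cdh11 and Cdh2 made up 71.2% (interval 70.5% to 71.9%) to 78.9% (78.6% to 79.2%) of member reads, so that the family total was mostly the level of this pair.

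Cdh6, at chr15:13028701-13173675, the K-cadherin of developing kidney and nervous system, was lower in Hes1-derived libraries. Its level was 2.46 and 1.77 against 22.2 and 7.76 CPM. The groups did not overlap, although the Fgfr3-derived libraries differed widely from each other (15.0 ± 10.2 CPM, SD, n = 2). The log2 fold change was −2.82 ± 0.57 (SE, adjusted p = 0.0272), a 7.06-fold difference. The call was lost without Hes1-derived replicate 1 (adjusted p = 0.0538), Hes1-derived replicate 3 (0.116) or Fgfr3-derived replicate 2 (0.0994), and with the eGFP scaling (0.162). Cdh24 had a log2 fold change of −1.49 and did not pass. Cdh18 stood at 0.132 and 0.484 CPM against 1.58 and 0.0765 CPM, so that its groups overlapped. As with the chondrocyte markers, Hes1-derived replicate 3 and Fgfr3-derived replicate 2 were the higher library of their group for Cdh18, an order noticed after its values were seen, and the part of chondrocytes in it was not tested.

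**Figure D2:**
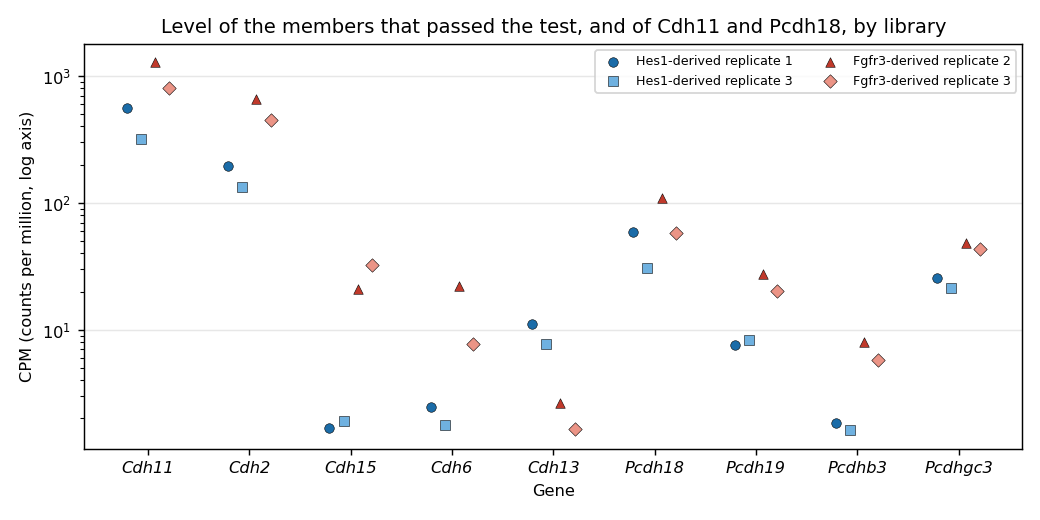
CPM on a log axis for the 7 members that passed the test, and for Cdh11 and Pcdh18, in each of the 4 libraries (blue, Hes1-derived; red, Fgfr3-derived). Cdh11 reached 1279 CPM in Fgfr3-derived replicate 2, Cdh15 shows the widest gap between the groups, and Cdh13 is the one gene with the blue points above the red.

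Per kilobase of exon, which allows genes to be compared, mean levels in Fgfr3-derived libraries ran from 117 CPM per kb for Cdh11 through 68.9 for Cdh2, 15.5 for Pcdh18 and 10.5 for Pcdhb9 to 8.22 for Cdh15. In Hes1-derived libraries the first 4 stood in the same order, at 49.3, 20.4, 8.34 and 5.47 CPM per kb. Cdh15 stood far lower there, with 0.548 CPM per kb. Pcdhgc3 has no fixed place in this order: its Fgfr3-derived level was 8.31 CPM per kb over all its exons and 25.1 over those it does not share, and whether reads of shared exons were counted is not known.

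Cdh13, at chr8:118283733-119324921, was the one member to pass as higher in Hes1-derived libraries. It encodes T-cadherin, which lacks a cytoplasmic tail, is held in the membrane by a lipid anchor, binds adiponectin and is found on endothelium and smooth muscle. Cdh13 stood at 11.1 and 7.70 against 2.64 and 1.64 CPM. The groups did not overlap, and the log2 fold change was 2.13 ± 0.45 (SE, adjusted p = 0.0294), a 4.38-fold difference. The direction held in every setting tried, from 1.84 to 2.94, but the call was lost on leaving out any 1 library: the adjusted p was 0.0819 without Hes1-derived replicate 1, 0.0553 without Hes1-derived replicate 3, 0.0557 without Fgfr3-derived replicate 2 and 0.0527 without Fgfr3-derived replicate 3. Endothelial markers were also higher by level, with a summed level of 162 and 163 CPM against 56.6 and 77.7 CPM, a median of 1.203 over 14 genes and 2 called higher. The endothelial cadherin Cdh5 itself stood at 2.02 and 4.47 CPM against 1.58 and 1.30 CPM and did not pass (adjusted p = 0.237). Smooth muscle and pericyte markers mostly went the other way, with 7 of 10 lower, a median of −1.46 and summed levels of 160 and 131 against 501 and 378 CPM. The smooth muscle genes Myh11 (log2 fold change 2.01) and Cnn1 (1.35), named after their values were seen, lay higher in both Hes1-derived libraries without passing. Whether endothelial or smooth muscle cells account for the Cdh13 reads was not tested.

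The remaining numbered cadherins were low. Cdh23, part of the tip link of hair cells, stood at 0.792 and 1.85 CPM against 2.41 and 2.22 CPM. Its groups did not overlap, but it did not pass (log2 fold change −0.80 ± 0.64 SE, adjusted p = 0.449 by edgeR). Cdh17, the liver-intestine cadherin, stood at 0.191 to 0.748 CPM, and its groups overlapped.

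Ratios to Cdh11 within a library need no scaling between libraries, so they show which members differed from the leading cadherin. Cdh2 gave 348 and 424 reads per 1000 Cdh11 reads against 518 and 556. Cdh15 gave 2.98 and 5.999 against 16.5 and 40.1, and Cdh6 gave 4.38 and 5.62 against 17.4 and 9.62. The called beta gene Pcdhb3 gave 3.29 and 5.11 against 6.32 and 7.15. These 4 genes were thus lower in Hes1-derived libraries also relative to Cdh11, without overlap. Cdh13 gave 19.7 and 24.4 against 2.07 and 2.04, Cdh1 gave 7.12 and 10.6 against 0.678 and 2.08, and Pcdh10 gave 3.13 and 5.23 against 0.462 and 0.284. For Pcdh19 (13.6 and 26.4 against 21.6 and 25.2) and Pcdhgc3 (45.3 and 67.4 against 37.6 and 53.7) the groups overlapped. Of the 63 other tested members, 9 lay below without overlap (3.4% of all tested genes did), 23 above (75.0% of all tested genes did) and 31 overlapped. The 9 included 6 clustered genes, which do not stand out, since 42 of the 63 were clustered. Since Cdh11 was itself lower in both Hes1-derived libraries, most genes of the table lie above on this scale.

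**Figure D3:**
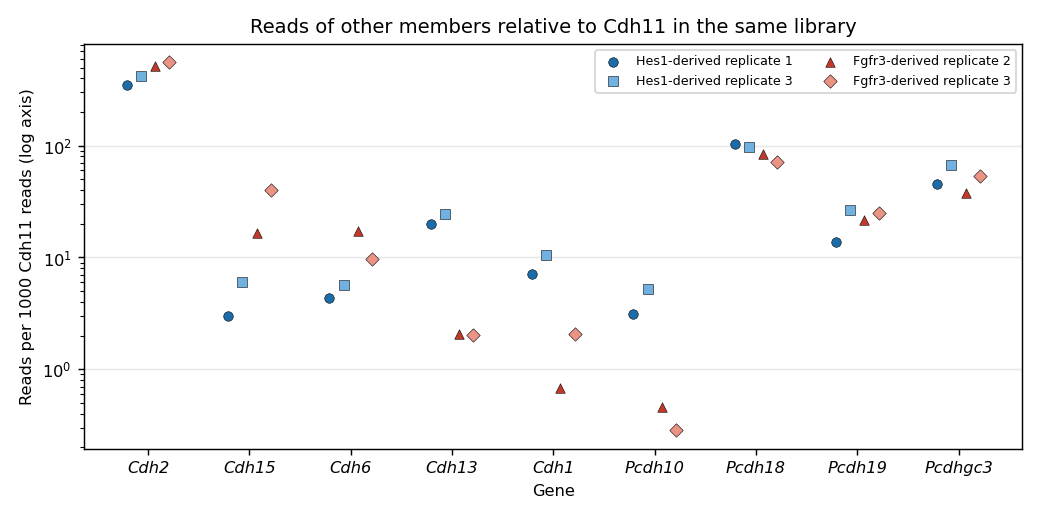
Reads of 9 members per 1000 Cdh11 reads of the same library, on a log axis, for the 4 libraries. Cdh2, Cdh15 and Cdh6 lie lower in both Hes1-derived libraries (blue), Cdh13, Cdh1, Pcdh10 and Pcdh18 lie higher, and Pcdh19 and Pcdhgc3 overlap.

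All 9 delta protocadherins were tested, and 1 of them, Pcdh19, was lower in Hes1-derived libraries. Pcdh19, at chrX:133582860-133688987, is an X-linked gene of the nervous system that acts in adhesion together with N-cadherin. It stood at 7.65 and 8.34 against 27.6 and 20.3 CPM. The replicates lay close together in the Hes1-derived group, and the log2 fold change was −1.58 ± 0.30 (SE, adjusted p = 0.0239), a 3.00-fold difference. The call was lost without Hes1-derived replicate 1 (adjusted p = 0.0549), Hes1-derived replicate 3 (0.0767) or Fgfr3-derived replicate 2 (0.0915), and with the reticular cell (0.424) and eGFP (0.576) scalings. Without a stated strand setting, its reads may include those of Gm26851 on the opposite strand.

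Pcdh18, the most abundant delta gene, stood at 58.6 and 30.9 against 108 and 57.8 CPM. Its groups overlapped, since Hes1-derived replicate 1 lay above Fgfr3-derived replicate 3, and the log2 fold change of −0.89 ± 0.39 (SE) did not pass (adjusted p = 0.179). Relative to Cdh11 it lay slightly higher in Hes1-derived libraries, with 104 and 98.0 reads per 1000 against 84.7 and 71.7. The delta-1 genes Pcdh7 and Pcdh1 had log2 fold changes of −1.94 and −1.20 and did not pass. Pcdh7 passed with DESeq2 (adjusted p = 0.0141), and its reads may include those of 4932441J04Rik on the opposite strand.

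Pcdh10 (OL-protocadherin, which recruits the WAVE complex) went the other way, with a log2 fold change of 2.04 that did not pass (adjusted p = 0.125). It stood at 1.76 and 1.65 against 0.591 and 0.229 CPM. The groups did not overlap at this low level. Pcdh9, Pcdh11x, Pcdh17 and Pcdh8 did not pass, with log2 fold changes from −0.70 for Pcdh17 to 1.60 for Pcdh11x. The other non-clustered genes Pcdh12, which is known from endothelium, and Pcdh20 were both low, with overlapping groups. Pcdh12 stood at 0.088 and 0.846 CPM against 0.828 and 0.688 CPM (log2 fold change −0.68 ± 1.03 SE, adjusted p = 0.713). Pcdh20 stood at 0.352 and 0.887 CPM against 0.394 and 1.07 CPM (−0.24 ± 0.88 SE, adjusted p = 0.892).

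The clustered protocadherins lie in a row on chromosome 18, and as a whole they were lower in Hes1-derived libraries by level, while few passed singly. The 49 clustered genes among the members together stood at 155 and 100.1 against 291 and 236 CPM. Of the 42 tested, 39 had a negative fold change, with a median of −1.01, 30 lay below without overlap (32.1% of all tested genes did) and none above (29.8% of all tested genes did). Of all tested genes 51.5% had a negative fold change. With the reticular cell scaling the median of the 42 was −0.61, with 33 negative and 0 lower calls, and with the eGFP scaling −0.25, with 26 negative and 0 lower calls, where the medians of all tested genes were 0.43 and 0.83. With edgeR 2 passed as lower (4.76%, against 6.56% of all tested genes) and 0 as higher (against 5.24%). The share that passed as lower thus did not exceed the background. At an unadjusted edgeR p under 0.05, 13 of the 42 were lower and 0 higher, against 2339 and 1968 of all 14330 tested genes. Their share of member reads was 15.2% and 15.9% against 11.8% and 14.3%, with exact 95% intervals of 14.7% to 15.7%, 15.3% to 16.4%, 11.5% to 12.1% and 14.002% to 14.7%. The 7 measured neuron markers, of cells best known for these genes, stood at 0.789 to 1.94 CPM when summed, and the part of neurons in these reads was not tested.

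The alpha genes among the members were all but silent. These 6 genes held 23 and 27 against 51 and 6 reads in all, and alpha genes without a row were not measured here. Pcdhac2, a C-type gene of the cluster, stood at 0.352 and 0.403 CPM against 0.631 and 0.115 CPM (log2 fold change 0.02 ± 1.03 SE, adjusted p = 0.991). Pcdha10 stood at 0.044 and 0.484 CPM against 0.670 and 0.115 CPM (−0.54 ± 1.29 SE, adjusted p = 0.823). Neither differed beyond the spread between libraries.

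Reads were spread over the 21 beta genes among the members. All 21 had reads in every library, with a summed level of 95.8 and 58.3 against 184 and 149 CPM. Levels were uneven, and Pcdhb13, with 4 and 5 against 10 and 12 reads, was too low to test. Of the 20 tested genes 19 had a negative fold change, the median was −1.04, and 17 lay below without overlap, against a background of 32.1%. With the reticular cell scaling the median was −0.64 with 17 negative, and with the eGFP scaling −0.29 with 14 negative. Beta genes carry their whole coding sequence in 1 exon, and a median of 5.25% of the 50-base windows of their transcripts occurred in another gene, so that most reads could be told apart. The exception was Pcdhb12 with 64.2%, which Gm37446 overlaps on the opposite strand, and the strand setting is not given.

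Pcdhb3, at chr18:37300799-37304585, was the beta gene that passed. It stood at 1.85 and 1.61 against 8.08 and 5.77 CPM. The log2 fold change was −1.999 ± 0.44 (SE, adjusted p = 0.0328), a 4.0-fold difference between groups that did not overlap. The call was lost without Hes1-derived replicate 1 (adjusted p = 0.0685), Hes1-derived replicate 3 (0.131) or Fgfr3-derived replicate 2 (0.137), and with the reticular cell (0.289) and eGFP (0.439) scalings. The most abundant beta gene, Pcdhb9, stood at 24.1 and 9.39 CPM against 35.8 and 28.4 CPM. Its groups did not overlap, but the Hes1-derived libraries differed widely from each other (16.7 ± 10.4 CPM, SD, n = 2). The log2 fold change of −0.94 ± 0.43 (SE) did not pass (adjusted p = 0.194 by edgeR), and without Hes1-derived replicate 1 it was −1.77. Pcdhb9 took from 16.1% (14.3% to 18.1%) to 25.1% (23.3% to 27.004%) of the beta reads, with exact 95% intervals in parentheses. Pcdhb17 stood at 6.69 and 7.78 CPM against 17.0 and 14.5 CPM, with replicates close together (−1.12 ± 0.31 SE, adjusted p = 0.0588).

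Another 6 beta genes, beside Pcdhb17, did not pass but had an unadjusted p under 0.05. The log2 fold change was −1.91 for Pcdhb21, −1.58 for Pcdhb22, −1.72 for Pcdhb7, −1.80 for Pcdhb15, −1.77 for Pcdhb16 and −1.03 for Pcdhb4, with adjusted p from 0.0506 for Pcdhb21 to 0.147 for Pcdhb4. With DESeq2, Pcdhb7, Pcdhb15, Pcdhb16, Pcdhb17, Pcdhb21 and Pcdhb22 passed as lower, beside Cdh11, Pcdh7 and the 6 members that passed as lower with edgeR, which made 14 members. The weakest differences were in Pcdhb18, Pcdhb6 and Pcdhb2, with fold changes of −0.04, −0.11 and 0.01.

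The gamma cluster was dominated by a single gene. Its 22 genes together stood at 58.6 and 40.8 against 105 and 86.4 CPM. Pcdhgc3, a C-type gene expressed outside the nervous system too, took 43.4% and 52.2% against 45.9% and 50.2% of gamma reads, with exact 95% intervals of 40.8% to 46.1%, 49.04% to 55.3%, 44.04% to 47.9% and 48.1% to 52.2%. The share thus varied as much within the groups as between them. Pcdhgc3, at chr18:37806364-37841873, stood at 25.5 and 21.3 against 48.1 and 43.4 CPM. Replicates lay close together and the groups well apart, with a log2 fold change of −0.97 ± 0.23 (SE, adjusted p = 0.040). This was the least secure of the calls. It was lost on leaving out any 1 library, with an adjusted p of 0.0766 without Hes1-derived replicate 1, 0.206 without Hes1-derived replicate 3, 0.129 without Fgfr3-derived replicate 2 and 0.0504 without Fgfr3-derived replicate 3, as well as with the reticular cell (0.710) and eGFP (0.898) scalings and against a fold of 1.2 (0.0584).

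Of the 20 tested gamma genes 19 had a negative fold change, with a median of −1.03, and 13 lay below without overlap, against a background of 32.1%. With the reticular cell scaling the median was −0.60 with 16 negative, and with the eGFP scaling −0.25 with 12 negative. In the main scaling the median was −1.22 for the 12 A-type genes, −0.91 for the 6 tested B-type genes and −0.53 for the 2 tested C-type genes. Pcdhgb6 stood at 2.46 and 2.82 CPM against 6.66 and 5.89 CPM (log2 fold change −1.25 ± 0.41 SE, adjusted p = 0.0908). Pcdhga6 (−2.84), Pcdhga11 (−2.20) and Pcdhgb2 (−1.28) had an unadjusted p under 0.05 and did not pass. Shared sequence limits these values: a median of 45.3% of the windows of a gamma gene, and up to 99.0%, occurred in another gene on either strand. Besides the constant exons this includes other overlapping genes, such as Gm26672 on the opposite strand of Pcdhga10, the gene with 99.0%. How the counting treated such reads is not given in the sources used here. The reads of Pcdhgc3 may also include those of BC037039 on the opposite strand.

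**Figure D4:**
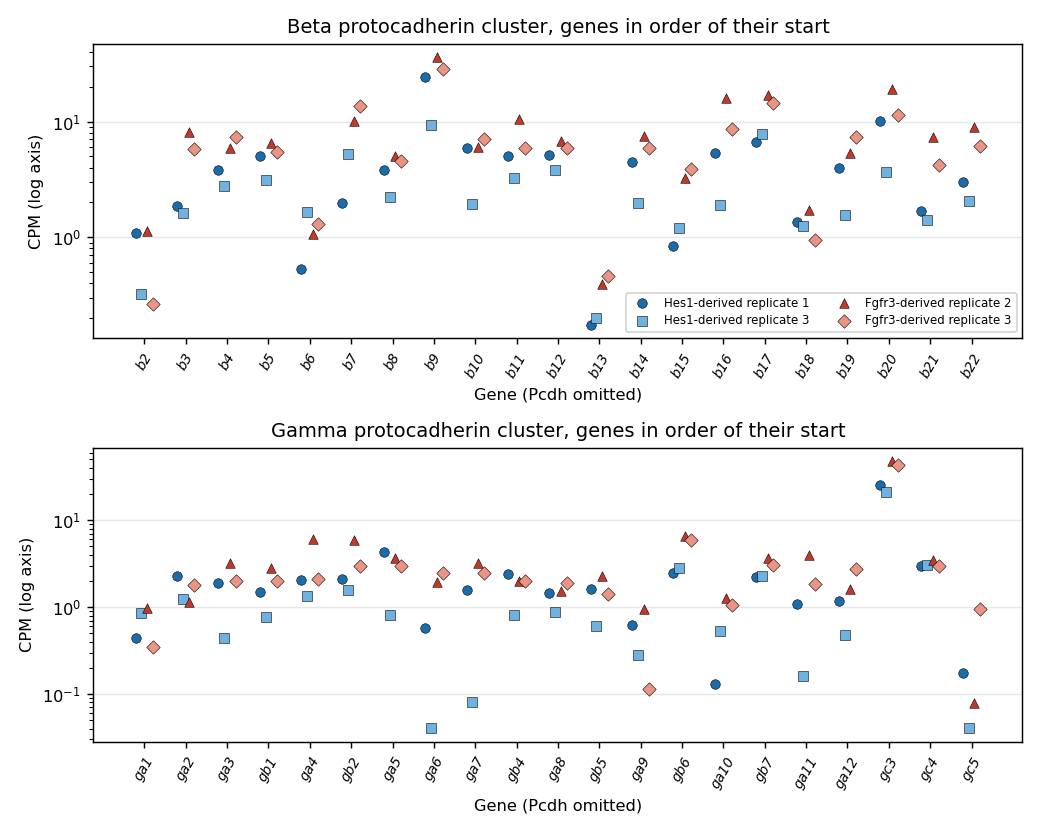
CPM on a log axis for the beta (top) and gamma (bottom) cluster genes in order of their start on the chromosome, in each library; 1 gamma gene without a position is left out. Red points (Fgfr3-derived) lie above blue ones (Hes1-derived) for most genes, and Pcdhgc3 stands above every other gamma gene.

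Genes that work with cadherins went both ways. Of 18 tested catenins and junction linkers, 4 were lower and 2 higher in Hes1-derived libraries (median −0.65). For this and the lists that follow, 6.56% of all tested genes were lower and 5.24% higher. The lower ones were Ctnnd1 (p120-catenin, which holds cadherins at the surface; log2 fold change −1.56), Afdn (afadin, −1.50), the cortical actin gene Cttn (−1.51) and Vezt (vezatin, −0.96). The higher ones were the actin-binding gene Ablim1 (2.32) and the scaffold gene Iqgap1 (1.02). Ctnnb1 (beta-catenin), the most abundant of the core catenins, stood at 307 and 283 CPM against 573 and 401 CPM and missed the threshold (−0.72, adjusted p = 0.109), as did Ctnna1 (−0.81, adjusted p = 0.0652). These 2 were added after their values were seen.

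Other cadherin-superfamily genes included 3 lower and 0 higher of 13 tested with edgeR (6 lower and 1 higher at an unadjusted p under 0.05): the giant cadherin Fat1 (−1.69), the receptor kinase Ret (−1.82) and the calsyntenin Clstn1 (−1.26). Fat1 stood at 80.3 and 58.7 CPM against 256 and 191 CPM, a gap close to that of Cdh2 (−1.75). Of 13 enzymes that cut cadherins or remove their propeptide, Pcsk6 (−2.30) and Adam9 (−1.24) were lower and none higher (3 higher at an unadjusted p under 0.05).

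The protocadherin signalling partners split, with 4 lower and 3 higher of 17 tested and a median of 0.07. Lower were Nckap1 (−1.52) and Wasf1 (−1.97) of the WAVE complex, the kinase gene Ptk2 (−1.56) and the receptor gene Ryk (−1.41). Higher were the WAVE complex genes Nckap1l (1.33), which is known from blood cells, and Cyfip2 (1.29), and the kinase gene Ptk2b (1.70). Nckap1l and its relative Nckap1 thus moved in opposite directions, beside the higher pan-leukocyte markers, and the part of blood cells in this was not tested. Of 14 regulators of the clustered promoters, which include CTCF and cohesin, the DNA methyltransferase gene Dnmt1 was higher (0.99) and none lower (1 lower and 5 higher at an unadjusted p under 0.05). Of the 19 calls named on these lists, 18 were lost without Hes1-derived replicate 3, at adjusted p from 0.0521 to 0.170, and Ablim1 alone was kept. Dropping Fgfr3-derived replicate 2 lost 13 of them, Hes1-derived replicate 1 lost 7 and Fgfr3-derived replicate 3 lost 3. With the reticular cell or the eGFP scaling 17 of the 19 were lost, which left the higher calls of Ablim1 and Ptk2b. The medians of the catenins and of the other superfamily genes then turned positive with eGFP (0.15 and 0.01), and that of the enzymes with both (0.08 and 0.41).

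The 13 untested members had at most 25 reads in any library. Cdh26 (11 and 5 reads) and Cdh8 (3 and 5 reads) had reads in both Hes1-derived libraries and 0 in both Fgfr3-derived ones. Cdh12, Cdh20 and Pcdh15 had reads in Fgfr3-derived libraries alone, at 1 to 8 reads. Pcdha5, Pcdha7, Pcdha9 and Pcdha12 each had reads in a single library. Cdh16, Pcdhb13 and Pcdhgb8 had 1 to 12 reads in every library, and Pcdhgc5 had 1 to 4 reads in 3 libraries and 25 in Fgfr3-derived replicate 3. At these counts no difference could be assessed.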

How the data were processed

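The deposited counts are whole numbers of reads for each gene and library. Per the submitters' processing notes, the tools were HTSeq, DESeq2, Cuffdiff, Cufflinks, Bowtie2 2.2.1, TopHat2 2.0.13 and FastQC, in no given order or role, on build mm10; the annotation and strand setting are not given in the sources used here. The deposited depth-normalized signal is each count times 1 constant per library, and the deposited log2 table holds the authors' regularized log transform, per its file name. The labels' protocols name both a bulk kit for cells sorted on GFP and tdTomato and a single-cell loading of cells sorted on tdTomato; with 1 column per library, the values were treated as bulk.

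All 17230 rows were fitted with edgeR 4.0.16 (R 4.3.3), with TMM factors, filterByExpr with a minimum count of 10, robust dispersions and the quasi-likelihood F test, for Hes1-derived against Fgfr3-derived libraries. SE was derived from F, as the size of the log2 fold change over its root. The 14330 tested genes held 99.96% of the counts, the biological coefficient of variation was 27.8% and 2 residual degrees of freedom were left. Alternatives were other scalings and filters, DESeq2 1.42.0, limma 3.58.1 (voom on counts, trend on the signal plus 0.5), another threshold, a minimum fold of 1.2 and leaving out each library; for genes of other lists they were added after seeing the data. Tested on simulated data with 14330 genes, edgeR called 7 of 100 simulated 2-fold changes and 80 of 100 simulated 4-fold changes, beside 1 false call; DESeq2 called 12 and 80, beside 11 false calls.

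Named with all values were each member that passed and the 2 most abundant per subfamily; other members with an unadjusted p under 0.05 are given by fold change. On other lists, up to 4 passing genes per direction are named. Members and lists were chosen with earlier results of these data known. Positions are from GENCODE M21 (GRCm38), which matched 75 of 77 members. Promoters are from RefSeq on GRCm38.p6.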

Additional observations from a re-analysis of the deposited data

How the results depend on the processing

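No paired analysis was possible because the groups share only replicate number 3. The count of lower members, 6 in the main test, was 2 with scaling to the reticular cell genes, 1 with scaling to eGFP reads, 14 with DESeq2 and 16 at an adjusted p under 0.10, and ranged from 2 to 9 on leaving out 1 library. The count of all genes called lower was then 80, 19, 1557 and 1664, against 940. It stayed at 5 to 7 with the other scalings, filters and tests. The count of higher members was 1 in each setting with all libraries and 0 on leaving out each library in turn with edgeR, with 1 to 3 higher at an unadjusted p under 0.05; the cause was not tested. For 31 named members under up to 17 alternatives, 449 of 519 values kept their direction and side of the threshold, 28 lost and 29 gained a call, and 13 changed sign, all in members that had not passed. The sign changes were 0.22 for Cdh23 and 0.47 for Pcdh12 with eGFP scaling, 0.18 and 0.68 for Pcdh20 and 0.27 and 0.68 for Pcdha10 with reticular cell and eGFP scaling, and, over the libraries left out, ranges of −3.04 to 0.16 for Pcdh12, −1.05 to 0.70 for Pcdh20, −3.01 to 1.21 for Pcdha10 and −0.68 to 0.12 for Pcdhac2. For 22 genes of other lists, 292 of 374 values kept both, 76 lost and 4 gained a call, and Ctnna1 (0.061) and Ctnnb1 (0.15) changed sign with eGFP scaling. Members under about 1 CPM rest on few reads, and differences near 2-fold were seldom recovered in simulation at this number of libraries.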
